A study of Mus musculus with 47 samples.

Results

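The HOX genes are described here in the gonadal fat pad of mice of 3 inbred strains, the laboratory strain C57BL/6J, the wild-derived strain CAST/EiJ and the obesity-prone strain NZO/HlLtJ. The members were all genes of the deposited table whose symbol is Hox, a cluster letter from a to d and a number. The rule found 33 of the 22376 genes in the table, and all 33 were among the 18769 genes tested. They comprise 11 genes of the HoxA cluster on chromosome 6, 8 of HoxB on chromosome 11, 7 of HoxC on chromosome 15 and 7 of HoxD on chromosome 2. Poly(A) RNA of 47 libraries was sequenced, from females and males fed from 6 weeks of age a diet with 10% fat plus fiber or one with 44% fat plus fiber, with tissue taken at 15 weeks. All mice were wild type and received no other treatment. The 12 groups of strain, sex and diet had 4 libraries each, except CAST/EiJ males on 10% fat, which had 3. The labels name the tissue for both sexes as gonadal fat pad, so 24 female and 23 male libraries were compared as female and male gonadal fat. Sex and the anatomical site of the pad cannot be told apart.

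HOX genes encode homeodomain transcription factors that lay down position along the body axis of the embryo. They stand in clusters, and the order of the genes along a cluster follows the order of their expression from head to tail: low paralog numbers (the 3' end) are used anteriorly and high numbers (the 5' end) posteriorly, in the pelvis, the genital tract and the distal limb. Adult fat depots keep depot-typical HOX profiles in their adipocytes and progenitor cells. The proteins bind DNA with PBC-class (PBX) and MEIS or PREP cofactors, and Polycomb and trithorax complexes maintain the silent or active state of the clusters.

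The deposited values are expected counts, summing to 29533647 to 56408743 per library, with a median of 40835704. Levels below are CPM, counts per 1000000 counts of a library whose size was scaled by edgeR's TMM method. Counts of 3, taken as the limit of detection, correspond to 0.0569 to 0.105 CPM in a library. The fat marker Adipoq was at 801 to 3259 CPM in female and 927 to 3372 CPM in male libraries. Two-sided tests were edgeR's quasi-likelihood F tests over all genes with Benjamini-Hochberg adjustment, and a gene was called at an adjusted p below 0.05. The labels do not say that each library is a separate mouse, so p-values measure the spread between these libraries only. Among males, 2 libraries stood apart by their epithelial markers: replicate 3 of C57BL/6J on 10% fat, with 118 CPM summed over 5 genes, and replicate 3 of CAST/EiJ on 10% fat, with 137 CPM. The other 45 libraries had up to 58.4 CPM. The CAST/EiJ library also held 550 CPM of Rnase10, a gene of the epididymis, and the C57BL/6J library 28.7 CPM of Elf5. Results for HOX genes that rest most on these libraries are given with and without them, and other values include them.

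In the HoxA cluster on chromosome 6 of GRCm38, the exon-bearing bodies of Hoxa9 and Hoxa10 are 0.108 kb apart, Hoxa7 and Hoxa9 1.25 kb apart and Hoxa11 and Hoxa13 11.9 kb apart. The reference tables of RefSeq held promoters for 19 of the 33 genes, 21 in all. In the 250 bases before the start, these promoters had a median of 13 CpG dinucleotides (range 2 to 35) and 58.0% GC, against 6 and 52.4% over all 32851 promoters. The motif of PBX with an anterior or middle HOX protein, searched as TGATNNAT on both strands, occurred in 3 of the 21 and in 7.68% of all promoters. A caudal and posterior HOX motif, searched as TTTATNG on both strands, occurred in 2 of the 21 and in 9.81% of all. A match is a run of letters and not a bound site. The windows of 4 genes are shown because the results turn on them: Hoxa9 and Hoxa13 bracket the block that was high in female fat, Hoxd11 lay in the same posterior block and differed by strain, and Hoxb8 was among the HoxB genes whose depot difference depended on the strain. Capitals mark a match to either motif. Hoxa9 is from the minus strand of chr6:52227371-52227620 with 3 CpG, Hoxa13 from the minus strand of chr6:52260881-52261130 with 35 CpG and 80.0% GC, Hoxd11 from the plus strand of chr2:74682073-74682322, 1 of 2 RefSeq starts of the gene, with 20 CpG, and Hoxb8 from the plus strand of chr11:96281655-96281904 with 12 CpG.
Hoxa9: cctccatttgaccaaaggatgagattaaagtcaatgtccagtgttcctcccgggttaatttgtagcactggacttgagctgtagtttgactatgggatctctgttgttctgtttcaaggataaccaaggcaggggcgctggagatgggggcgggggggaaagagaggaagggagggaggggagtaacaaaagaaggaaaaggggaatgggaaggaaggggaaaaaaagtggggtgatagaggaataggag
Hoxa13: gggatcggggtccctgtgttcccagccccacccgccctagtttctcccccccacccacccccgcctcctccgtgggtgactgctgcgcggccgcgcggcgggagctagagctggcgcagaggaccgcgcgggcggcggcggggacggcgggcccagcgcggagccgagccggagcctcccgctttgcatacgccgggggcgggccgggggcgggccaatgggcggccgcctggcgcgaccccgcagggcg
Hoxd11: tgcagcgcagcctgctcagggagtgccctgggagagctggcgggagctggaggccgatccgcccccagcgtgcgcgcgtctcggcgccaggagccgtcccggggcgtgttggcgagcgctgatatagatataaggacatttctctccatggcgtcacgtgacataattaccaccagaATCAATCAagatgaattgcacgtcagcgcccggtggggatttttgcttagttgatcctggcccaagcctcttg
Hoxb8: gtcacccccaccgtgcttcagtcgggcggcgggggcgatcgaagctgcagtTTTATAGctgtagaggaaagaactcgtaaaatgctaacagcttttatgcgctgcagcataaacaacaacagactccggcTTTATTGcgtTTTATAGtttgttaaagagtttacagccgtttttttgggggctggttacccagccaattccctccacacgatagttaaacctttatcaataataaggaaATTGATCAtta
The Hoxd11 match to the PBX motif begins 73 bases before the start shown. The window of the other RefSeq start of Hoxd11 has 2 CpG and 44.8% GC and holds no match to either motif. Hoxb8 holds 1 match to the PBX motif, 11 bases before the start, and 3 to the caudal motif, at 199, 120 and 110 bases. Hoxa9 and Hoxa13 hold neither set of letters in this window.

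Gonadal fat of both sexes expressed the HOX genes at a similar total, made up differently by paralog number. Levels between genes were compared as CPM per kilobase of annotated exons. The 33 genes summed to 98 ± 11.4 CPM per kilobase in female fat (SD, n = 24 libraries) and 91.7 ± 19.7 in male fat (SD, n = 23). Paralogs 9 to 13 made up 33.7% ± 2.31 of this sum in female fat, with a range of 29.7% to 39.7%, and 3.98% ± 1.12 in male fat, with a range of 2.73% to 7.45%. No female library overlapped a male library in this share. HoxC held the largest mean share in both, 45.5% in female and 49.5% in male fat. HoxA held 24.3% and 16.3%, HoxB 13.6% and 20.04%, and HoxD 16.6% and 14.2%.

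By all annotated exons, the highest level per kilobase in female fat was that of Hoxc10, a posterior gene used in the lumbar region and hindlimb, at 14.9 CPM per kilobase, followed by Hoxc8 at 10.9, Hoxc6 at 10.4 and Hoxd8 at 7.35. In male fat Hoxc8, a gene of the thoracic region, led with 22.6 CPM per kilobase, followed by Hoxc6 at 10.2, Hoxd8 at 7.47 and Hoxa7 at 5.68. The order of near values depended on the length used: with the longest transcript in place of all exons, Hoxc6 led in female fat, at 15.8 against 14.9 for Hoxc10, and in male fat Hoxc6 was at 15.5 and Hoxa7, at 8.05, was above Hoxd8, at 7.78. Hoxc10 ranked 25 of 33 in male fat, at 0.124 CPM per kilobase. The lowest genes were Hoxd1 in female fat, at 0.0267 CPM per kilobase, and Hoxc11 in male fat, with no count.

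**Figure D1:**
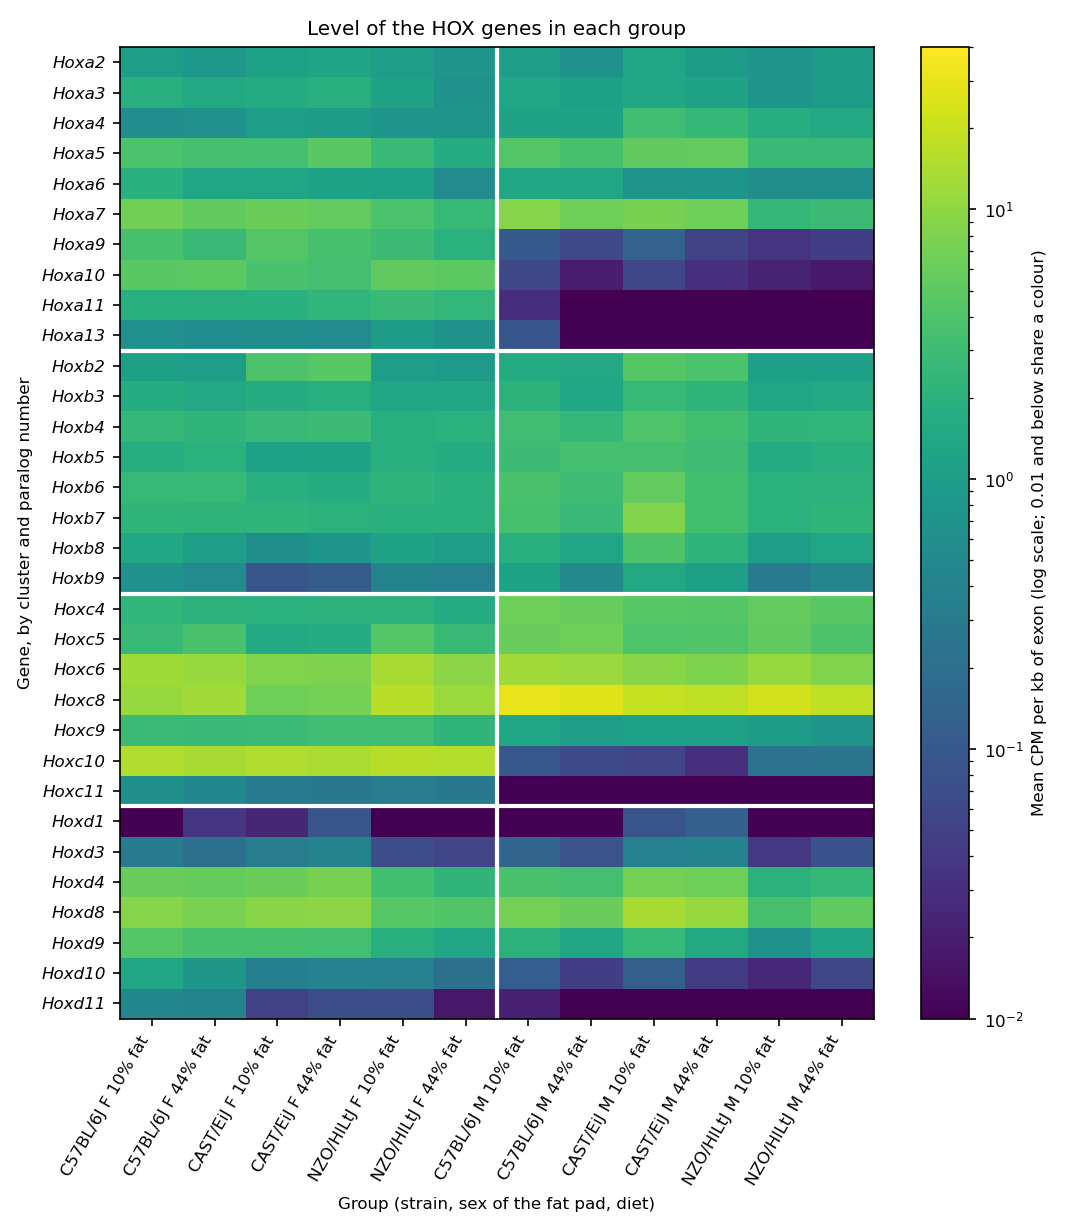
Mean level of HOX genes in the 12 groups, as CPM per kilobase of annotated exons on a log colour scale, with genes ordered by cluster and paralog number and levels of 0.01 and below sharing 1 colour. In female groups only Hoxd1 reaches the floor, in 3 groups, while all male groups are at the floor at Hoxc11, and all except C57BL/6J on 10% fat at Hoxa11, Hoxa13 and Hoxd11.

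Female and male gonadal fat differed most at the posterior end of HoxA, HoxC and HoxD, where Hoxa9, Hoxa10, Hoxa11, Hoxa13, Hoxc10 and Hoxc11 were present in every female library and at most 1.03 CPM in any male library. In the other direction, Hoxc4, Hoxc5, Hoxc8, Hoxa4 and 7 of the 8 HoxB genes were lower in female fat. Not all genes followed this order: Hoxa3, Hoxa6 and Hoxd4 were called higher in female fat, by 0.38, 0.42 and 0.31 on the log2 scale. The depot difference, female minus male over equally weighted strains and diets, was called for 26 of the 33 genes, 13 higher in female and 13 higher in male fat. Over all genes tested, 33.7% were called, 17.3% higher and 16.4% lower in female fat. The median absolute log2 difference was 0.74 over the HOX genes and 0.13 over all genes tested. In 8 HOX genes no female library overlapped a male library, against 0.128% of all genes tested, 24 in number. In bulk tissue, fewer cells of a type and less RNA per cell cannot be told apart.

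Within HoxA the step lay between Hoxa7 and Hoxa9. Hoxa7 was at 14.4 CPM in female and 16.3 CPM in male fat and was not called (log2 difference -0.13 ± 0.073 SE, adjusted p = 0.192). Hoxa9, which acts with Meis1 in blood stem cells and patterns the limb, ranged from 9.87 to 30.9 CPM in the 24 female libraries, with a mean of 17.8 ± 5.76 (SD), and from 0.0646 to 1.03 CPM in the 23 male libraries, with a mean of 0.389. The lowest female library was thus above the highest male library. The log2 difference was 5.57 ± 0.143 (SE), with an edgeR adjusted p of 1.13e-29. Summed counts gave a ratio of 37.3 in C57BL/6J, 43.2 in CAST/EiJ and 62.5 in NZO/HlLtJ. Without the 2 male libraries that stood apart, the ratios were 36.9 in C57BL/6J and 53.2 in CAST/EiJ.

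Hoxa10, required for the identity of the uterus in females, was at 14.8 ± 3.26 CPM in female fat, with a range of 9.40 to 20.6, and at 0 to 0.480 CPM in male fat, with a mean of 0.111. Its log2 difference was 7.14 ± 0.167 (SE), with an edgeR adjusted p of 3.75e-31. All strains showed it, with ratios of 124 in C57BL/6J, 79.9 in CAST/EiJ and 259 in NZO/HlLtJ. Without the male libraries of replicate 3 on 10% fat that stood apart, the ratios were 195 in C57BL/6J and 101 in CAST/EiJ. Only 103 counts of Hoxa10 were found in the 23 male libraries together, against 14491 in the 24 female libraries.

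Hoxa11, which patterns the uterus and the forearm, was at 5.0 ± 1.09 CPM in female fat (range 3.45 to 6.85), whereas 21 of the 23 male libraries had no count. In CAST/EiJ the summed female level was at least 445-fold higher, taking 3 counts over the male group as its limit. NZO/HlLtJ males held 1 count in all, which gave a ratio of 2056 with an exact counting interval of 369 to 81265. In C57BL/6J all 10 male counts came from the library of replicate 3 on 10% fat, at 0.267 CPM, and the ratio was 135, or at least 398 without that library. Intervals and limits of this kind cover counting error only.

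Hoxa13, the most posterior gene of its cluster, which acts in the distal limb and the genital tubercle, was at 1.65 ± 0.515 CPM in female fat (range 0.936 to 3.05) and had no count in 20 of the 23 male libraries. The female level was at least 132-fold higher in CAST/EiJ. In NZO/HlLtJ the 3 male counts gave a ratio of 234 with an interval of 79.9 to 1139. In C57BL/6J the same library of replicate 3 on 10% fat held all 34 male counts, at 0.906 CPM, close to the lowest female library, and the ratio was 14.1, or at least 141 without it. The depot difference in C57BL/6J was called for Hoxa11 and Hoxa13 with and without that library.

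**Figure D2:**
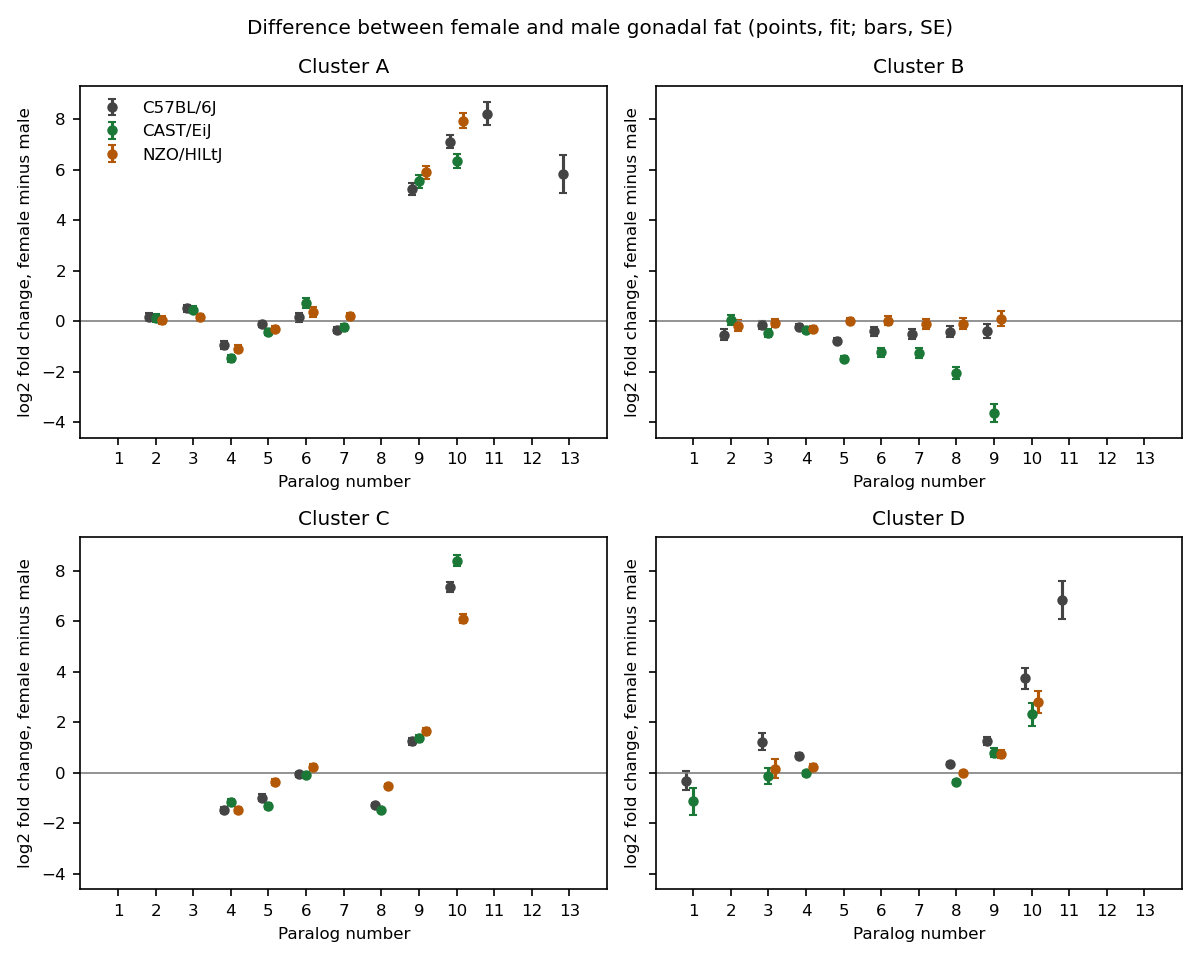
Female minus male log2 difference of HOX genes against their paralog number, by cluster and strain, with standard errors. Genes with at most 3 counts in either depot of a strain are left out, which removes Hoxc11 in all strains. No value is above 2 up to paralog 8, and all values of Hoxa9, Hoxa10 and Hoxc10 are above 5.

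In HoxC the difference turned from lower to higher in female fat between Hoxc8 and Hoxc9, which are 5.51 kb apart. The difference was much larger at Hoxc10 than at Hoxc9. Hoxc9, a repressor of anterior genes in motor neurons, was higher in female fat at 6.91 CPM (range 5.13 to 8.85) against 2.60 CPM (range 1.39 to 4.06), without overlap, with a log2 difference of 1.42 ± 0.082 (SE) and an edgeR adjusted p of 3.98e-17. Hoxc10 was at 28.5 ± 3.40 CPM in female fat (range 19.7 to 35.1) and at 0.237 ± 0.207 CPM in male fat (range 0.0202 to 0.737). Its log2 difference was 7.29 ± 0.119 (SE), with an edgeR adjusted p of 5.44e-37. Hoxc11 was at 0.777 ± 0.310 CPM in female fat (range 0.351 to 1.46), present in every female library, and had no count in any of the 23 male libraries. Its summed female level was at least 240-fold higher, and at least 118-fold higher in C57BL/6J, 53.8-fold in CAST/EiJ and 72.4-fold in NZO/HlLtJ taken alone.

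In HoxD the change was more gradual along the cluster. Hoxd8 did not pass the test over all strains (log2 difference -0.01 ± 0.052 SE, adjusted p = 0.941). Hoxd9 was higher in female fat by 0.93 ± 0.097 (SE), Hoxd10 by 2.96 ± 0.253 (SE), with edgeR adjusted p-values of 6.53e-10 and 3.47e-12. Hoxd10, which patterns lumbar motor neurons and the hindlimb, averaged 1.05 CPM in female and 0.121 CPM in male libraries, and the ranges overlapped. Hoxd11, which acts with Hoxa11 in the forelimb and the kidney, was at 0.0385 to 2.51 CPM in female fat and at 0 in 21 of the 23 male libraries. The female level of Hoxd11 was at least 22.9-fold higher in CAST/EiJ. In C57BL/6J the ratio was 45.0, with all 13 male counts in replicate 3 on 10% fat, at 0.347 CPM. Without that library the ratio was at least 172, and the difference stayed called (adjusted p = 4.08e-10 without both libraries that stood apart). HoxB has no member above paralog 9 among the 33, and its Hoxb9 went the other way, as given below.

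**Figure D3:**
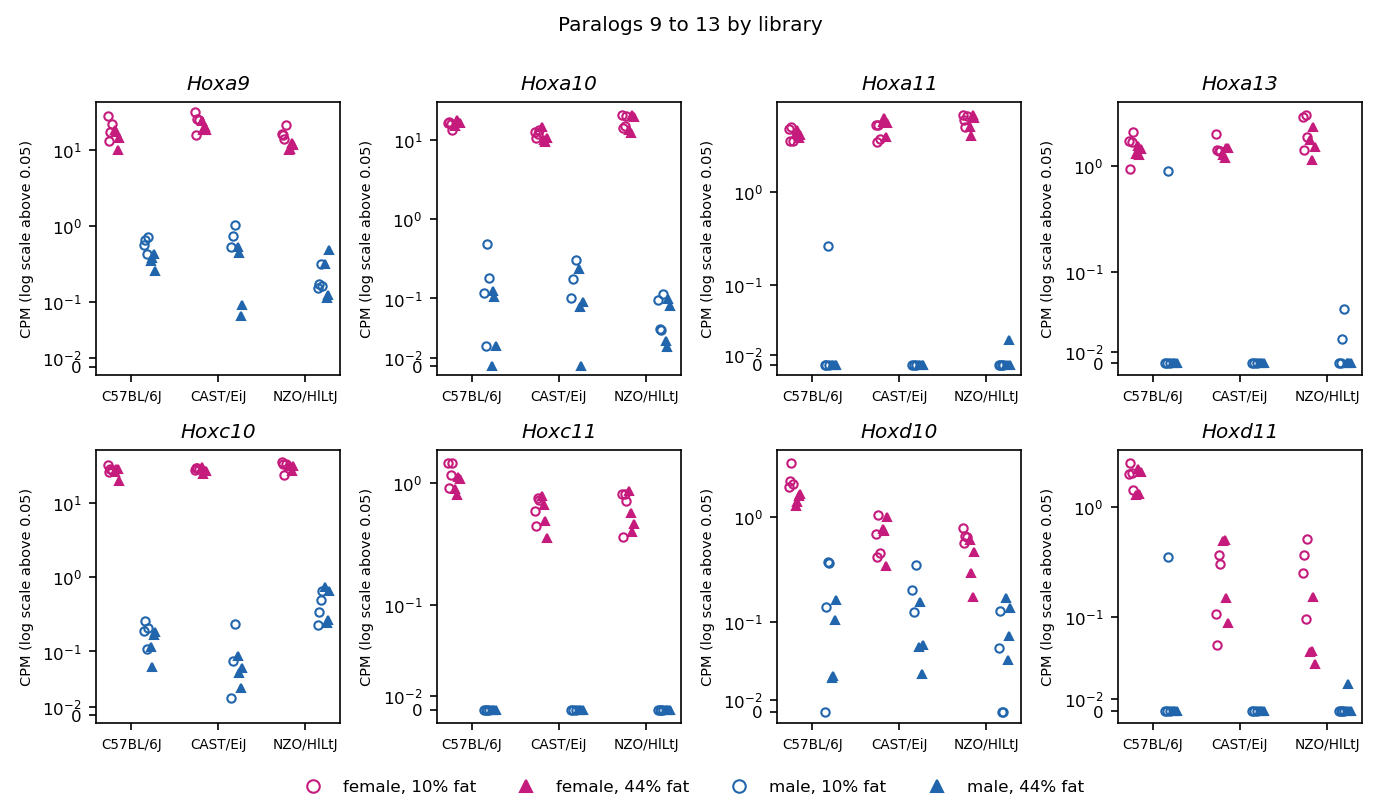
CPM of 8 posterior HOX genes in every library, by strain and depot, on an axis that is linear below 0.05 CPM and log above. Open circles are 10% fat and filled triangles 44% fat. Female libraries of Hoxa9, Hoxa10 and Hoxc10 lie above 9 CPM and all male libraries of these genes lie near or below 1 CPM, while the Hoxd10 and Hoxd11 values of CAST/EiJ and NZO/HlLtJ females lie below those of C57BL/6J.

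Markers of other cell types moved with this comparison, in which 17.3% of all genes tested were called higher and 16.4% lower in female fat. The 6 smooth muscle markers were all called higher in female fat, with a median log2 difference of 0.85, as were all 7 mesothelial markers (median 0.72) and 7 of 8 adipose progenitor markers (median 0.34). Of the 10 markers of ovary, oviduct and uterus, 4 were in the table, with 2 called higher, and they summed to 1.45 to 9.02 CPM in female and 1.40 to 5.13 CPM in male libraries. Of 5 epithelial markers 3 were called lower (median -0.76). The 8 adipocyte markers had a median log2 difference of -0.04, and 2 were called, both lower. The summed smooth muscle level was 157 to 1756 CPM in female and 134 to 898 CPM in male libraries, so the groups overlapped. The male value of 898 CPM was that of C57BL/6J replicate 3 on 10% fat, and without it males reached at most 379 CPM. By strain, C57BL/6J females were at 578 to 1756 CPM. CAST/EiJ was at 186 to 461 CPM in females and 192 to 359 in males, and NZO/HlLtJ at 157 to 214 and 134 to 203. The part of these cells in the HOX differences was not tested.

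Of the 13 genes that were higher in male fat, all but Hoxb9 were anterior or middle paralogs, and none differed by more than 1.37 on the log2 scale. Hoxc4, an anterior gene of the neck region, was the only one of them without overlap between depots, at 3.6 to 7.45 CPM in female and 9.37 to 19.9 CPM in male libraries. Its log2 difference was -1.37 ± 0.071 (SE), with an edgeR adjusted p of 1.36e-18. Hoxc8 averaged 30.9 CPM in female and 63.9 CPM in male fat (log2 difference -1.09), Hoxa4 differed by -1.16 and Hoxc5 by -0.89. Among HoxB, Hoxb9 differed by -1.30, Hoxb8 by -0.85, Hoxb5 by -0.74, Hoxb7 by -0.63 and Hoxb6 by -0.53, while Hoxb3 and Hoxb4 differed by less than 0.3 on this scale. Hoxa5 differed by -0.28. The female over male ratio of summed counts went from 0.676 to 0.786 in Hoxb6 without the 2 male libraries that stood apart. It went from 0.599 to 0.743 in Hoxb7, from 0.547 to 0.669 in Hoxb8 and from 0.454 to 0.570 in Hoxb9. The members not called were Hoxa2, Hoxa7, Hoxb2, Hoxc6, Hoxd1, Hoxd3 and Hoxd8. Without the 2 male libraries that stood apart, 26 genes were again called, with Hoxb3 lost (adjusted p = 0.0918) and Hoxd3 gained (adjusted p = 0.0347). Hoxb3 also lost its call in 29 of the 47 fits that each left out 1 library.

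The posterior difference was present in all strains, whereas 7 HoxB genes were called lower in female fat in CAST/EiJ, 1 in C57BL/6J and 0 in NZO/HlLtJ. Within C57BL/6J, 20 genes were called, 14 higher and 6 lower in female fat, against 24.5% of all genes (12.6% higher and 11.9% lower). Within CAST/EiJ, 25 were called, 12 higher and 13 lower, against 23.8% (12.4% and 11.4%), and within NZO/HlLtJ 13, 10 higher and 3 lower, against 8.19% of all genes (4.58% higher and 3.61% lower). A test of whether the depot difference varied among strains, added after the data were seen, called 10 HOX genes, against 17.3% of all genes: Hoxb5, Hoxb6, Hoxb7, Hoxb8, Hoxb9, Hoxc5, Hoxc8, Hoxc10, Hoxd4 and Hoxd8.

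Hoxb9, which with its paralogs patterns the thorax, was at 0.0827 to 0.363 CPM in CAST/EiJ females and at 0.650 to 6.25 CPM in CAST/EiJ males, without overlap. The log2 difference in CAST/EiJ was -3.63 ± 0.339 (SE), with an edgeR adjusted p of 8.44e-11, and without the library of replicate 3 on 10% fat it was -3.36. In C57BL/6J the Hoxb9 difference was -0.39 (adjusted p = 0.356) and in NZO/HlLtJ 0.11 (adjusted p = 0.883). The test across strains gave an adjusted p of 9.60e-08 for Hoxb9. Hoxb5, a regulator of enteric neural crest cells, followed the same order, with -1.48 in CAST/EiJ, -0.76 in C57BL/6J and 0.03 in NZO/HlLtJ (adjusted p of the strain test 2.21e-08).

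Hoxb8 differed by -2.05 in CAST/EiJ and by -0.41 and -0.09, neither called, in C57BL/6J and NZO/HlLtJ. Its CAST/EiJ value came to -1.55 without the 2 male libraries that stood apart, and stayed called, and Hoxb6 and Hoxb7 went from -1.23 to -0.84 and from -1.26 to -0.69. In that CAST/EiJ library Hoxb6 was at 19.6 CPM, Hoxb7 at 26.5, Hoxb8 at 20.4 and Hoxb9 at 6.25 CPM. The strain test of Hoxb7 was lost without these libraries (adjusted p = 0.0786) and that of Hoxd9 was gained (0.0488). The epithelial markers of CAST/EiJ males were at 14.8 to 137 CPM against 10.7 to 33.6 CPM in CAST/EiJ females, and their part in the HoxB values was not tested.

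Among the genes of HoxC and HoxD, Hoxc8 was lower in female fat by 1.27 in C57BL/6J, 1.48 in CAST/EiJ and 0.53 in NZO/HlLtJ on the log2 scale, called in each (adjusted p of the strain test 1.14e-08). Hoxc10 differed by 7.35, 8.41 and 6.11 in the same order, with an adjusted p of the strain test of 1.61e-05. Its male level was 0.161 CPM in C57BL/6J, 0.0800 in CAST/EiJ and 0.451 in NZO/HlLtJ, and the lowest NZO/HlLtJ value, 0.228, was below the highest of the other strains, 0.255. Hoxd8 changed sign, at 0.34 in C57BL/6J and -0.36 in CAST/EiJ, both called, and 0.00 in NZO/HlLtJ. Hoxd4 differed by 0.68 in C57BL/6J, which was called, and by -0.01 in CAST/EiJ and 0.25 in NZO/HlLtJ, which were not (adjusted p of the strain test 0.00141).

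Strains differed at many HOX genes within each depot, as they did at many other genes. The submitters' notes name no genome build other than GRCm38. Whether alignment allowed for the sequence of each strain is not given, and its part in the strain differences was not tested. In female fat 5 HOX genes were higher and 12 lower in CAST/EiJ than in C57BL/6J, where 60.4% of all genes were called, 29.7% higher and 30.6% lower. In NZO/HlLtJ females 1 was higher and 12 lower than in C57BL/6J, against 53.7% of all genes, 25.7% and 28%. Between NZO/HlLtJ and CAST/EiJ females 7 were higher and 15 lower in NZO/HlLtJ, against 68.6%, 34.4% and 34.2%. In male fat 13 were higher and 7 lower in CAST/EiJ than in C57BL/6J, against 61.7%, 30.6% and 31.1%. In NZO/HlLtJ males 2 were higher and 19 lower than in C57BL/6J, against 50.5%, 24.7% and 25.8%, and 1 was higher and 19 lower than in CAST/EiJ, against 67.9%, 33.4% and 34.5%. Across the 6 contrasts 39.4% to 66.7% of the HOX genes were called, against 50.5% to 68.6% of all genes, and in 3 of these contrasts at least 12 of the genes called were lower in NZO/HlLtJ with at most 2 higher. The 3 contrasts of a depot share libraries and are given side by side.

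Hoxb2, a target of retinoic acid in the hindbrain, was the HoxB gene that stood out in CAST/EiJ. In CAST/EiJ females it ranged from 8.96 to 31.7 CPM with a median of 12.3, and in C57BL/6J and NZO/HlLtJ females from 3.08 to 4.41 and from 1.93 to 4.20 CPM. In males the CAST/EiJ range was 8.76 to 22.0 CPM, against 4.17 to 6.95 and 2.48 to 4.87 CPM. No CAST/EiJ library overlapped the other strains in either depot. The log2 difference from C57BL/6J was 1.99 in female and 1.41 in male fat, with edgeR adjusted p-values of 2.55e-10 and 4.82e-07. The highest CAST/EiJ values of Hoxb2, 18.6 to 31.7 CPM, were those of the 4 libraries whose sample numbers begin with 77. Within the 3 ranges of sample numbers, the difference from C57BL/6J was 2.73, 1.55 and 1.5 in female fat and 1.66, 1.44 and 1.09 in male fat.

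HoxB at its posterior end went the other way in CAST/EiJ females. Hoxb9 was lower there than in C57BL/6J by 2.53 on the log2 scale (0.265 against 1.55 CPM, adjusted p = 2.13e-08), Hoxb8 by 0.75 and Hoxb5 by 0.67. In CAST/EiJ males Hoxb3, Hoxb7, Hoxb8 and Hoxb9 were called higher than in C57BL/6J, and each of these calls ended without the library of replicate 3 on 10% fat, that of Hoxb9 in 8 of 15 fits in all. With both libraries that stood apart left out, Hoxb8 and Hoxb9 were called again (adjusted p = 0.0198 and 0.0135), while Hoxb3 and Hoxb7 were not (0.106 and 0.467).

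NZO/HlLtJ had the lowest mean levels of Hoxd3, Hoxd4, Hoxd8 and Hoxd9 among the strains in both depots. Hoxd4, used in the hindbrain and neck, was at 6.32 to 9.89 CPM in NZO/HlLtJ females, against 15.5 to 18.6 in C57BL/6J and 15.1 to 24.3 in CAST/EiJ females. Hoxd8 was at 10.6 to 15.5 CPM there, against 19.7 to 26.9 and 23.4 to 29.1 CPM. The NZO/HlLtJ females thus lay below all other female libraries in both genes. Compared with C57BL/6J, Hoxd3, Hoxd4, Hoxd8 and Hoxd9 were lower in NZO/HlLtJ by 2.03, 1.07, 0.92 and 1.34 in female fat and by 0.97, 0.63, 0.58 and 0.84 in male fat on the log2 scale, all called. The call of Hoxd3 in males ended without any of 3 single libraries (highest adjusted p = 0.0613). In HoxA, Hoxa3, Hoxa5, Hoxa6 and Hoxa7 were called lower in NZO/HlLtJ than in C57BL/6J in both depots, by 0.88, 0.76, 1.00 and 0.94 in female and by 0.51, 0.55, 1.21 and 1.49 in male fat. Hoxa5 is a regulator of lung and skeletal patterning, also studied in fat. Cell type markers moved in the same contrast. Of all genes tested, 28% were called lower and 25.7% higher in it in female fat, and 25.8% and 24.7% in male fat. All 7 mesothelial markers were called lower in NZO/HlLtJ (median -1.33 in female and -2.46 in male fat) and all 6 macrophage markers higher (1.75 and 1.74). Of 6 smooth muscle markers 6 and 5 were lower, of 8 adipocyte markers 5 and 4 were lower and 2 and 2 higher, and of 8 progenitor markers 4 and 4 were lower and 3 and 2 higher. The part of these cells in the HOX values was not tested.

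Within the posterior block, Hoxd10 and Hoxd11 separated C57BL/6J females from those of the other strains. Hoxd11 was at 1.27 to 2.51 CPM in C57BL/6J females, at 0.0552 to 0.495 in CAST/EiJ and at 0.0385 to 0.513 in NZO/HlLtJ females, so C57BL/6J did not overlap either. The log2 differences from C57BL/6J were -2.88 ± 0.505 and -3.6 ± 0.532 (SE), with edgeR adjusted p-values of 1.52e-05 and 1.48e-06. Hoxd10 averaged 1.93, 0.683 and 0.525 CPM in the females of the 3 strains, with C57BL/6J at 1.29 to 3.30 CPM and the others at most 1.06 CPM. Hoxc11 was at 1.11 CPM in C57BL/6J and at 0.599 and 0.622 CPM in the other females, called lower in both. Hoxa11 and Hoxa13 were not called between strains in female fat. The smooth muscle markers moved with Hoxd10 and Hoxd11: they summed to 578 to 1756 CPM in C57BL/6J females and to at most 461 CPM in the females of the other strains. The part of smooth muscle in these values was not tested.

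In HoxC, Hoxc8 separated the females of CAST/EiJ, at 15.3 to 21.5 CPM, from those of C57BL/6J, at 30.4 to 37.5 CPM, with a log2 difference of -0.84, and from NZO/HlLtJ, at 29.9 to 53.9 CPM. Hoxc5 and Hoxc6 were also called lower in CAST/EiJ than in C57BL/6J in both depots. Hoxc10 was not called between strains in female fat. In male fat it was higher in NZO/HlLtJ than in C57BL/6J by 1.42 and than in CAST/EiJ by 2.44 on the log2 scale, at levels below 1 CPM. Hoxa4 was higher in CAST/EiJ than in C57BL/6J by 0.70 in female and 1.24 in male fat, with male means of 4.43 and 1.90 CPM. Hoxd1, the lowest HOX gene of female fat, had counts in all CAST/EiJ libraries. Its range there was 0.0276 to 0.283 CPM in females and 0.0751 to 0.334 CPM in males. The lowest female value was below the limit of 3 counts, and the female median was 0.0680. Hoxd1 averaged at most 0.0346 CPM in each other strain and depot.

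**Figure D4:**
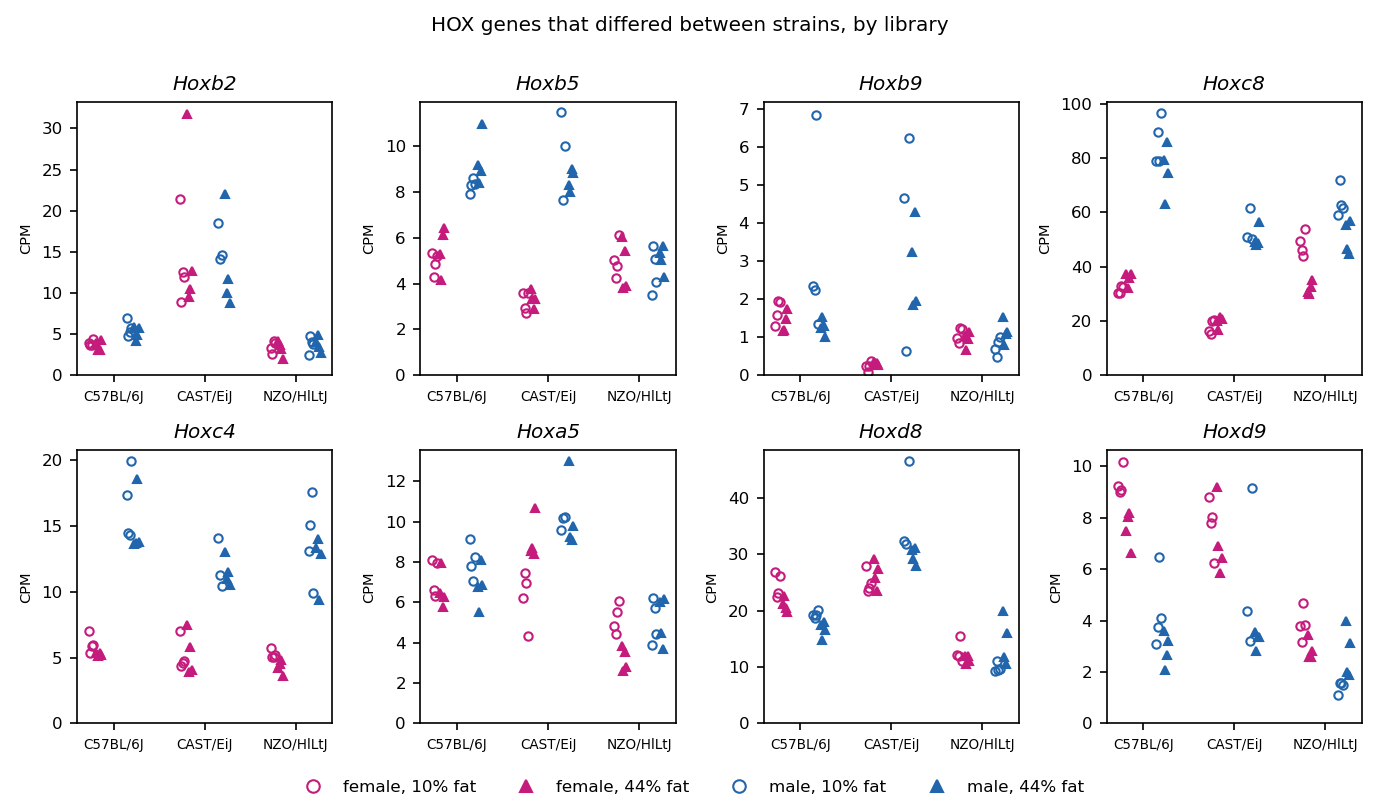
CPM of 8 HOX genes in every library by strain and depot, on linear axes. Hoxb2 is highest in CAST/EiJ, Hoxb9 is lowest in CAST/EiJ females, and Hoxd8 and Hoxd9 are lowest in NZO/HlLtJ. Hoxc4 and Hoxc8 lie higher in male than in female libraries of the same strain, except that Hoxc8 overlaps in NZO/HlLtJ.

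Most calls for diet were in NZO/HlLtJ females, where 8 genes fell on 44% fat and none rose. This was 24.2% of the HOX genes, near the 21.1% of all genes called, of which 10.3% were higher and 10.8% lower. The 8 were middle and anterior paralogs: Hoxa3, Hoxa5, Hoxa6, Hoxa7, Hoxc5, Hoxc6, Hoxc8 and Hoxd4. No gene of paralogs 9 to 13 was called for diet in these females, but some of their differences were as large, such as -0.58 in Hoxa9 (adjusted p = 0.0875) and -2.03 in Hoxd11 (0.0784), and posterior and middle genes were not tested against each other. Hoxc8 fell from 49.4, 46.2, 44.1 and 53.9 CPM on 10% fat to 30.8, 29.9, 32.7 and 35.1 CPM on 44% fat. The lowest library on 10% fat was above the highest on 44% fat. The log2 difference of Hoxc8 was -0.59 ± 0.10 (SE), with an edgeR adjusted p of 4.71e-05.

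Hoxd4 was at 9.28, 9.86, 9.49 and 9.89 CPM on 10% fat and at 6.32, 6.78, 6.64 and 7.01 CPM on 44% fat, again without overlap (log2 difference -0.53, adjusted p = 0.00659). Hoxa6, a gene of the thoracic region, had the largest difference, -1.06 ± 0.262 (SE), from 0.787, 1.01, 1.12 and 1.09 CPM to 0.288, 0.563, 0.458 and 0.597 CPM (adjusted p = 0.00298). Hoxa3 fell by 0.75, Hoxa5 by 0.71, Hoxc5 by 0.70, Hoxa7 by 0.57 and Hoxc6 by 0.53 on the log2 scale. Hoxc6 overlapped between diets, because replicate 3 on 10% fat was at 19.1 CPM and the other 3 at 36.1 to 38.1 CPM. Leaving out single libraries ended the call of Hoxa7 in 2 fits (highest adjusted p = 0.0816) and of Hoxc6 in 4 fits (0.0711). Outside the sample numbers beginning with 77, diet and the range of sample numbers cannot be told apart in NZO/HlLtJ females. Within that range, with 4 libraries, all 8 genes were lower on 44% fat, by 0.49 to 0.97 on the log2 scale.

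Cell type markers moved with diet in NZO/HlLtJ females, in whom 10.3% of all genes tested were called higher and 10.8% lower on 44% fat. The summed adipocyte markers were at 21842 to 23647 CPM on 10% fat and 14521 to 18506 CPM on 44% fat, with 6 of 8 called lower. Macrophage markers were at 689 to 961 and 1126 to 1476 CPM, with 6 of 6 called higher, and mesothelial markers at 142 to 190 and 22.1 to 87.0 CPM, with 7 of 7 called lower. The progenitor markers overlapped, at 2097 to 2980 and 2450 to 3187 CPM. The part of these cell types in the HOX values was not tested.

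The diet difference varied among strains in female fat for Hoxa3, Hoxa5, Hoxc5, Hoxc8 and Hoxd4, with adjusted p-values of 0.0258, 0.00123, 0.00280, 2.19e-04 and 0.0186, against 20.7% of all genes. Hoxc8 differed by 0.18 in C57BL/6J and by 0.14 in CAST/EiJ females, neither called, and Hoxc5 by 0.50 (adjusted p = 0.0826) and 0.12. Hoxa5 was higher on 44% fat in CAST/EiJ females by 0.54 (adjusted p = 0.0419, the only HOX gene called there, against 6.56% of all genes), and this call ended in 7 fits that left out 1 library. In C57BL/6J females the 1 call, against 7.29% of all genes, was Hoxd1, at 0 in all 4 libraries on 10% fat and above 0 in only replicates 1 and 4 on 44% fat, at 0.0704 and 0.206 CPM.

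**Figure D5:**
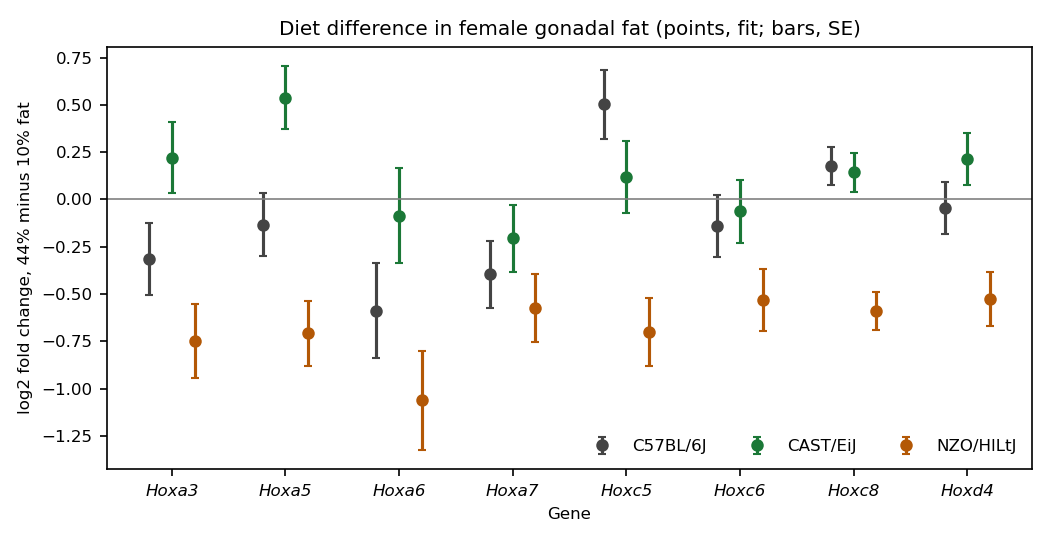
Log2 difference between 44% and 10% fat in female gonadal fat, with standard errors, for the 8 HOX genes called in NZO/HlLtJ, in each strain. The NZO/HlLtJ points all lie below 0, from -1.06 to -0.53, and those of C57BL/6J and CAST/EiJ lie on both sides of 0.

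In male fat few HOX genes were called for diet. In NZO/HlLtJ males Hoxd8 and Hoxd9 were higher on 44% fat, by 0.56 (adjusted p = 0.0243) and 0.93 (0.0475), against 1.16% of all genes. Diet and the range of sample numbers cannot be told apart in these males outside the numbers beginning with 77, and within that range, with 4 libraries, the differences were 0.59 and 1.06. Hoxd8 was at 9.33, 11.1, 9.45 and 9.71 CPM on 10% fat and at 19.98, 11.7, 10.6 and 16.0 CPM on 44% fat. Replicates 1 and 4 on 44% fat stood above the rest, and the groups overlapped. Both genes varied among strains in their diet difference (adjusted p = 0.0116 and 0.0101, against 1.55% of all genes). Hoxd8 lost its diet call in 5 fits and Hoxd9 in 6 fits that left out 1 library. In C57BL/6J males the 1 call, Hoxa13, against 3.79% of all genes, came from replicate 3 on 10% fat, at 0.906 CPM with the other 7 libraries at 0. In CAST/EiJ males the 1 call, Hoxb7, against 2.07%, came from replicate 3 on 10% fat, at 26.5 CPM. Neither was called without these libraries.

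Some cofactors of HOX proteins were also higher in female fat. Of 9 cofactor genes, 5 were called higher and none lower, with a median log2 difference of 0.12 against 0.0002 over all genes, of which 17.3% were called higher and 16.4% lower. Among them were Pknox2 (1.35), Meis2 (0.74), Pbx4 (0.66) and Meis1 (0.42), of which Meis1 encodes a common partner of HOX proteins. Among 18 tested genes of other positional transcription factors of fat, 10 were called higher and 1 lower, with a median of 0.37. Osr2, a factor of urogenital and palate mesenchyme, differed by 2.54, Tbx5, a forelimb and heart factor, by 2.17, Emx2, required for the urogenital system, by 1.93, and Tbx15 by 1.07. Nr2f1 was lower, by 0.40.

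Genes that maintain or induce the clusters were called in both directions. Of 29 Polycomb and trithorax genes 3 were called higher and 7 lower in female fat, with a median of -0.0045, a share near the 33.7% of all genes called. Kdm6a, an X-linked histone demethylase known to escape X inactivation, had the largest difference, 0.67, and Ezh1, a Polycomb methyltransferase, was lower by 0.30. Of 14 tested genes of retinoid signalling, which induces HOX genes in the embryo, 3 were called higher and 8 lower, with a median of -0.19. These included the retinol transporter gene Stra6 (-1.10, at 0.0790 against 0.247 CPM), the retinaldehyde dehydrogenase genes Aldh1a1 (-0.51) and Aldh1a3 (-0.34) and the receptor gene Rara (-0.26). Of 6 axial inputs, 1 was tested, Gdf11, a ligand that sets the trunk to tail transition, and it was higher by 0.85.

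On 44% fat in NZO/HlLtJ females, 1 of 9 cofactor genes was called, Meis1, lower by 0.52, against 21.1% of all genes, 10.3% higher and 10.8% lower. Of the Polycomb and trithorax genes 2 of 29 were called higher and 6 lower, a share near that of all genes, with Cbx7 lower by 0.70 and Mllt3 by 0.60. Of the retinoid genes 4 were called lower and none higher, with Aldh1a2, a retinaldehyde dehydrogenase also made by mesothelium, lower by 1.06. Of the positional factors 3 were called lower, Osr1 by 1.30, Wt1 by 1.28 and Tcf21 by 0.90. Wt1 is also a gene of mesothelial cells, whose markers fell as given above.

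Other transcripts inside the clusters followed their neighbours in part. Hoxa11os, transcribed opposite to Hoxa11, was at 3.16 ± 0.797 CPM in female fat (range 1.78 to 4.76) and averaged 0.0337 CPM in male fat. Its highest male value, 0.693 CPM, was in C57BL/6J replicate 3 on 10% fat, a library that stood apart by its epithelial markers. The male mean includes that library. Its exons share 800 bases with Hoxa11, 35.0% of the exon bases of Hoxa11, and whether strand was used in counting is not given in the sources used here, so reads of the pair cannot be told apart. Gm28308 was called higher in female fat by 1.32, 5730596B20Rik by 0.81, Hoxaas2 by 0.61 and Gm28230 by 0.60. Hotairm1, a transcript at the anterior end of HoxA, was lower in female fat by 0.66 and Hoxaas3 by 0.38. Exons of 16 of the 33 HOX genes overlap another annotated gene, 9 on the same strand and 10 on the opposite one. Hoxa3, Hoxa7, Hoxb2, Hoxb3, Hoxc5, Hoxd3 and Hoxd4 are among them, and their counts are uncertain to that extent. Hoxd4 shares 39.1% of its exon bases with Gm28230 on the same strand, and Hoxb2 27.3% with Hoxb3os on the opposite strand. Hoxc5 shares 166 bases on its own strand with Hoxc10.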

How the data were processed

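Poly(A) RNA was sequenced in 47 gonadal fat libraries. The authors deposited 1 table of expected counts per gene, unnormalized. The submitters' processing notes name GRCm38 and DESeq2. Which aligner and counter made the counts, and whether strand was used, is not given in the sources used here. Of the values, 21.5% were not whole (tolerance 1e-06). All columns matched a sample.

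Expected counts were rounded to whole numbers and tested with edgeR 4.0.16 (limma 3.58.1, R 4.3.3): TMM scaling, filterByExpr with a minimum count of 10, 12 group means over all 47 libraries, 35 residual degrees of freedom, and Benjamini-Hochberg adjustment over 18769 of 22376 genes at 0.05. The script was tested on simulated data. Replicates were numbered in accession order. No pair of libraries agreed within sampling noise (chi-square per degree of freedom 12.6 to 192, genes of at least 20 counts). Depth was 29533647 to 56408743 counts per library. The limit of detection was 3 counts. Gene lengths and overlaps came from GENCODE M21, promoters from RefSeq on GRCm38.p6.

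Alternatives were DESeq2 1.42.0, no filter, library totals, fits of 1 depot or strain, the range of sample numbers as a term, and each library left out. Added after seeing the data were a fit without 2 male libraries with over 100 CPM of epithelial markers, and the test of depot by strain. Values of 1 member are not reported here. HOX genes were named by rule, called members from the largest change, up to 10 in full. Up to 4 called genes per pathway list are named. Members, lists and tests were chosen with earlier results of these data known.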

Additional observations from a re-analysis of the deposited data

Results flagged for a closer look

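Among 348 sets of 1 HOX gene in 4 libraries, 24 had 1 library far from the other 3. For normally spread values chance gives about 1 in 20, or 17.4. The rule always flags a set with 0 in 3 libraries and a value above 0 in 1. The figure for chance does not hold for such sets, which are among the 24. CAST/EiJ males on 10% fat, with 3 libraries, were not screened, among them the library with 137 CPM of epithelial markers. Among the groups screened, replicate 3 of C57BL/6J males on 10% fat was the library most often set apart, for 4 genes: Hoxa11 at 0.267 CPM, Hoxa13 at 0.906 and Hoxd11 at 0.347, each with 0 in the other 3 libraries, and Hoxb6 at 10.7 CPM with the others at 5.80 to 6.53. This is a library whose epithelial markers stood apart (118 CPM).

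In HoxA, Hoxa5 was high in replicate 4 of CAST/EiJ females on 44% fat (10.7 CPM, others 8.38 to 8.68) and in replicate 1 of CAST/EiJ males on 44% fat (13.01 CPM, others 9.11 to 9.77). Hoxa9 was high in replicate 3 of NZO/HlLtJ males on 10% fat, at 0.311 CPM, and Hoxa13 in replicate 1 of CAST/EiJ females on 10% fat, at 2.02 CPM. Hoxa11 was at 0.0244 CPM in replicate 3 of NZO/HlLtJ males on 44% fat and 0 in the other 3.

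In HoxB, Hoxb2 was at 31.7 CPM in replicate 1 of CAST/EiJ females on 44% fat, with the others at 9.50 to 12.7, and Hoxb4 at 6.98 CPM in replicate 3 of NZO/HlLtJ males on 44% fat. In HoxC, Hoxc4 was high in replicate 3 of C57BL/6J males on 44% fat (18.6 CPM) and in replicate 1 of CAST/EiJ females on 10% fat (7.02 CPM). Hoxc6 was low in replicate 3 of NZO/HlLtJ females on 10% fat (19.1 CPM, others 36.1 to 38.1) and in replicate 3 on 44% fat (19.9 CPM). Hoxc8 was high in replicate 4 of CAST/EiJ males on 44% fat (56.3 CPM) and Hoxc9 in replicate 1 of C57BL/6J females on 10% fat (8.85 CPM).

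In HoxD, Hoxd1 rested on few counts in NZO/HlLtJ: 0.0193 CPM in replicate 4 of females on 44% fat, 0.0214 CPM in replicate 2 of males on 10% fat and 0.0732 CPM in replicate 3 of males on 44% fat, with 0 in the other libraries of each group. Hoxd3 was high in replicate 4 of NZO/HlLtJ females on 10% fat (0.625 CPM, others 0.166 to 0.207), and Hoxd9 low in replicate 1 of NZO/HlLtJ males on 10% fat (1.10 CPM). Hoxd11 was high in replicate 3 of NZO/HlLtJ females on 44% fat (0.153 CPM) and in replicate 2 of NZO/HlLtJ males on 44% fat (0.0222 CPM, others 0).

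The diet difference varied among strains, by edgeR's test with adjusted p-values, in female fat for Hoxa3 (0.0258), Hoxa5 (0.00123), Hoxc5 (0.00280), Hoxc8 (2.19e-04) and Hoxd4 (0.0186), and in male fat for Hoxd8 (0.0116) and Hoxd9 (0.0101). The depot difference varied among strains for Hoxb5 (2.21e-08), Hoxb6 (0.00200), Hoxb7 (0.0114), Hoxb8 (4.47e-05), Hoxb9 (9.60e-08), Hoxc5 (6.53e-04), Hoxc8 (1.14e-08), Hoxc10 (1.61e-05), Hoxd4 (0.00141) and Hoxd8 (3.77e-04).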

How the results depend on the processing

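No paired analysis was possible because the labels give no replicate numbers. The numbers of called HOX genes kept within 1.5 times of the values given under each alternative, except in diet comparisons with at most 2 calls. In NZO/HlLtJ males the 2 diet calls became 1 without a filter, 1 with library totals and 0 with male libraries alone. In C57BL/6J females the 1 call became 0 with the range of sample numbers as a term, with female libraries alone and with DESeq2. In C57BL/6J males it became 0 with male libraries alone, 4 with DESeq2 and 0 without the 2 libraries that stood apart, and in CAST/EiJ males 0, 2 and 0. The 2 male genes whose diet difference varied among strains became 0 with male libraries alone. The Hoxa13 diet difference in C57BL/6J males was 0 without replicate 3 on 10% fat. The cause of the other changes was not tested.

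Leaving out each library in turn gave 0 to 1 calls for diet in C57BL/6J females, 0 to 3 in C57BL/6J males, 0 to 1 in CAST/EiJ females, 0 to 4 in CAST/EiJ males, 7 to 8 in NZO/HlLtJ females and 0 to 2 in NZO/HlLtJ males. It gave 2 to 4 for diet by strain in males, and 25 to 27 for the depot difference. Of the called values of single genes, 209 kept direction and call and 1 lost its call with DESeq2. With library totals 191 did and 20 lost their call, and totals moved the median of all genes by -0.147 to 0.325 between strains in females. Within a range of sample numbers the depot direction turned for 1 member, strain directions for Hoxb3, Hoxb4 and Hoxc8, and the diet direction for Hoxb7. Hoxa13 in C57BL/6J males and Hoxd1 in C57BL/6J females had no count on either diet in some ranges, which gave no direction there. Below about 0.1 CPM values rest on a few counts, so absence of a posterior gene from male fat means not detectable at this depth.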
